A study of Arabidopsis thaliana with 4 samples.

Results

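Glutathione S-transferases (GSTs) are soluble enzymes that join the tripeptide glutathione to reactive or foreign molecules, so that the products can be moved to the vacuole, and some reduce peroxides or carry ligands. Plants hold 2 large classes of their own, tau (GSTU) and phi (GSTF), which use a serine at the active site and are best known for herbicide detoxification and stress responses, together with smaller classes such as lambda (GSTL), whose active-site residue is a cysteine. Many tau genes lie in tandem arrays, and their transcripts are known to respond to oxidative stress, jasmonates, auxin and foreign chemicals. The genes described here are all those with a probe set of their own on an Affymetrix array whose symbol in the platform table starts with GSTU, GSTF, GSTL, GSTZ, GSTT or ATGST. There were 14 of 13356 genes so measured, on an array with 22746 probe sets tested, of which 13513 are matched to a single gene: 11 of the tau class, 2 of the phi class (GSTF4 and ATGSTF13), the lambda gene GSTL3, and none of the zeta and theta classes. RefSeq (TAIR10.1) names 48 Arabidopsis thaliana genes by these classes, of which 27 are tau and 13 are phi, and the other 34 were not analysed here. Each of the 14 had 1 probe set, and no probe set among them is marked in the design as sharing probes between transcripts.

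The arrays hold RNA of whole seedlings aged 1 week. All genotypes shared 48 h of cold at the start, days with 16 h of light, a growth room at 24 °C and upright dishes, 4 for each genotype. There were 2 samples labelled 35S:AtRALF1-1, in which RNA of a pair of transgenic lines (I and II) was mixed in equal parts, and 2 control samples, in which RNA of the wild type was mixed in the same way with RNA of wild-type plants carrying the empty pART27 vector. The cauliflower mosaic virus 35S promoter drives the coding sequence of AtRALF1, a secreted peptide that restricts cell elongation in roots, in nearly all tissues. The samples of each group are labelled as a first and a second repeat, and each repeat therefore holds 1 array of each group. Whether the repeats are separate plantings is not in the labels. The p-values thus rest on the spread of these arrays alone, possibly a technical one, and an exact permutation test of 2 arrays against 2 cannot give a p below 0.333.

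Signals are linear intensities that the authors had scaled to a common trimmed mean, and the array medians were 48.5 and 42.0 in 35S:AtRALF1-1 and 50.5 and 46.1 in the control. No detection calls were used and no background level was measured. Signals under the array median are treated here as ones that cannot be told from background, a cut that was not tested. On each array 5 to 7 of the 14 GST genes lay under it. Of the markers for the organs of a seedling, 2 of 5 listed shoot genes and 4 of 5 listed root genes were measured. The shoot genes, RCA (Rubisco activase) and LHCB4.1 (a light-harvesting protein), summed to 17480.5 and 16175.6 in 35S:AtRALF1-1 and to 19986.8 and 15815.8 in the control, and the root genes, PYK10, EXPA7, EXPA18 and AT4G26010, to 6361.5 and 4823.9 in 35S:AtRALF1-1 and to 7458.2 and 6532.4 in the control. Most of the root sum was PYK10, a root beta-glucosidase, with 5714.6 and 4085.0 in 35S:AtRALF1-1 against 7079.2 and 6100.5 in the control, whereas AT4G26010, EXPA7 and EXPA18 had higher values in 35S:AtRALF1-1 in each repeat (AT4G26010, 378.8 and 417.4 in 35S:AtRALF1-1 against 181.1 and 225.2 in the control). None passed the test. AtRALF1 itself is not among the named genes, and the level of the transgene was not checked here.

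The first question was whether GST transcripts differed between 35S:AtRALF1-1 and control seedlings. None of the 14 genes passed the test, in which log2(signal + 16) was compared with limma and p-values were adjusted over all probe sets, and neither did any other probe set (0% at an adjusted p under 0.05). With the offset of 16, GSTU20, GSTU16 and GSTU21 stood apart from the other 11 in the size of the log2 fold change. With an offset of 1 the dim gene GSTF4 (0.94) was larger in size than GSTU16 (-0.93). With an offset of 64 GSTU21 was 0.34, beside -0.25 for GSTL3. GSTU20 and GSTU16 had lower signals in 35S:AtRALF1-1 in both repeats, while GSTU21, a dim gene, had higher ones. At an unadjusted p under 0.05, where 4.31% of all probe sets fell, there were 2 of the 14 genes, GSTU16 (lower, as were 2.29% of all probe sets) and GSTU21 (higher, as were 2.01%). The medians over the 14 genes and over all probe sets were 0.00 and -0.04 as log2 fold changes, with 7 of the 14 positive.

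**Figure D1:**
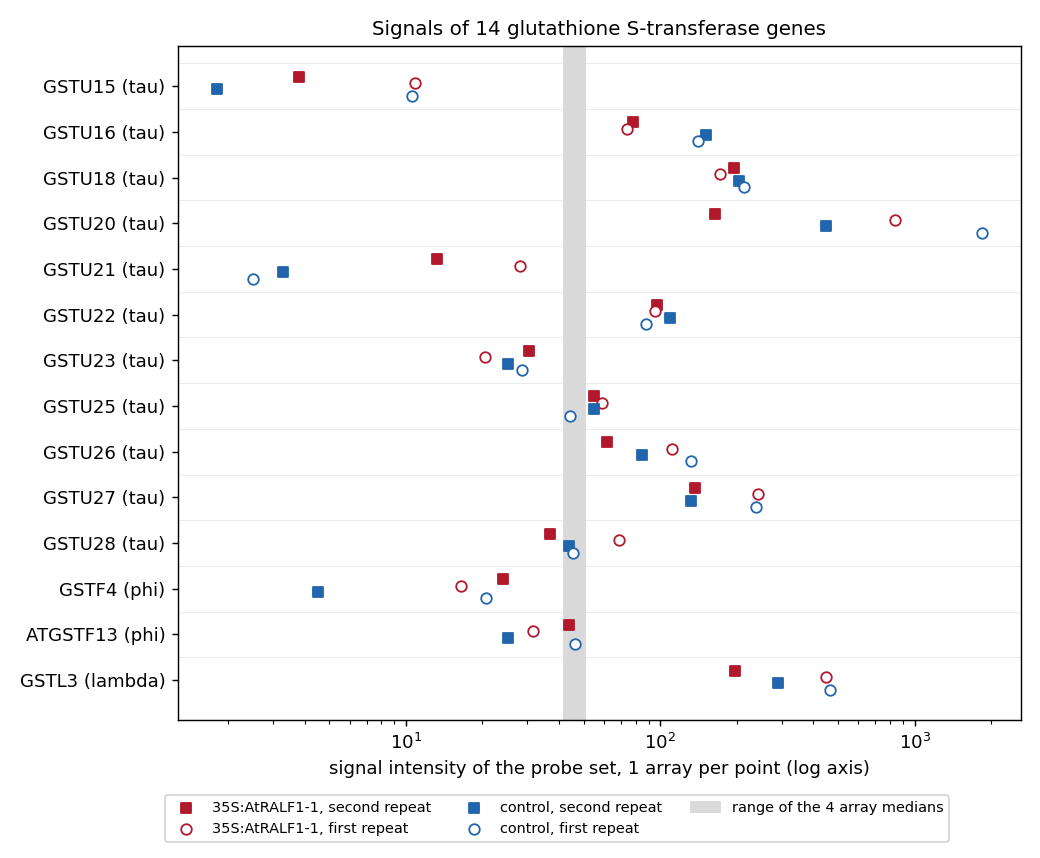
Signal intensity of each of the 14 genes on each of the 4 arrays, on a log axis, with 35S:AtRALF1-1 in red and the control in blue, and the second repeat as filled squares and the first as open circles; the grey band spans the array medians (42.0 to 50.5). GSTU16 separates by group, with 74.3 and 78.3 in 35S:AtRALF1-1 against 140.3 and 151.5 in the control, while GSTU20 and GSTU27 separate by repeat.

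GSTU16 (AT1G59700), a tau class gene, had signals of 74.3 and 78.3 in the first and second repeat of 35S:AtRALF1-1, against 140.3 and 151.5 in the first and second repeat of the control. The groups did not overlap, and the arrays within each group lay close together, at 76.3 ± 2.83 in 35S:AtRALF1-1 and 145.9 ± 7.92 in the control (SD, n = 2 each). The 35S:AtRALF1-1 signal was 0.530 times the control signal in the first repeat and 0.517 times in the second. The fold change on the log2 scale was -0.81 (standard error 0.23, adjusted p = 0.987, limma), and it lay between -0.86 and -0.76 with any single array left out. At or below this value lay 2.08% of all probe sets.

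GSTU20 (AT1G78370) is known for binding FIN219/JAR1, the enzyme that joins jasmonate to isoleucine, in far-red light signalling. Its signals were 839.4 and 163.5 in the first and second repeat of 35S:AtRALF1-1, and 1843.9 and 447.6 in those of the control. In each repeat the 35S:AtRALF1-1 array was the lower, at 0.455 and 0.365 times the control array, yet the groups overlapped, because the second control array lay below the first 35S:AtRALF1-1 array. The log2 fold change was therefore -1.25 with a standard error of 1.01 (limma, adjusted p = 0.987), and 0.189% of all probe sets lay at or below it. With 35S:AtRALF1-1 replicate 1 left out it was -2.37, with 35S:AtRALF1-1 replicate 2 left out -0.12, with control replicate 1 left out -0.24 and with control replicate 2 left out -2.25, since each omission unbalances the repeats. Within the repeats it was -1.12 in the first and -1.37 in the second.

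GSTU21 (AT1G78360) lies next to GSTU20. It had signals of 28.2 and 13.2 in 35S:AtRALF1-1 and of 2.5 and 3.3 in the control. The groups did not overlap, but all 4 values lay under the array medians, at the percentiles 36.8 and 23.9 of the 35S:AtRALF1-1 arrays and 6.48 and 9.05 of the control arrays. The ratio of the group means, 7.14, thus compares signals that are treated here as not told apart from background, by a cut that was not tested. With an offset of 16 the log2 fold change was 0.93 (standard error 0.26, limma, adjusted p = 0.987), a value that 1.16% of all probe sets reached, but it was 2.39 with an offset of 1 and 0.34 with 64.

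The other 8 tau genes had log2 fold changes between -0.30 and 0.16, each smaller in size than its standard error. GSTU26 (AT1G17190) had the lowest, -0.30 (standard error 0.38), from signals of 111.0 and 61.7 in 35S:AtRALF1-1 and of 132.4 and 84.6 in the control. GSTU18 (AT1G10360) had signals of 171.4 and 194.2 in 35S:AtRALF1-1 and of 213.8 and 204.6 in the control, which did not overlap, at a log2 fold change of -0.18 (standard error 0.22). Groups that did not overlap were found for GSTU16, GSTU18 and GSTU21, 3 of the 14 genes, against 31.4% of all probe sets (18.1% lower and 13.3% higher in 35S:AtRALF1-1).

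GSTU25 (AT1G17180), an enzyme known for conjugating the explosive TNT, had the highest of the 8 log2 fold changes, 0.16. Its signals were 59.2 and 54.9 in 35S:AtRALF1-1 and 44.3 and 55.0 in the control. GSTU28 (AT1G53680) had signals of 68.6 and 36.9 in 35S:AtRALF1-1 and of 45.4 and 43.8 in the control, so that the control arrays lay between those of 35S:AtRALF1-1. Only the signal of 68.6 lay above its array median. GSTU22 (AT1G78340) and GSTU27 (AT3G43800) were nearly level between the groups, with log2 fold changes of -0.02 and 0.03, and GSTU22 changed sign under quantile normalization and cyclic loess. GSTU22 had signals of 95.2 and 97.1 in 35S:AtRALF1-1 and of 87.5 and 109.1 in the control.

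GSTU23 (AT1G78320) and GSTU15 (AT1G59670) were dim on all arrays. The signals of GSTU23 were 20.5 and 30.6 in 35S:AtRALF1-1 and 28.7 and 25.2 in the control, and those of GSTU15 were 10.9 and 3.8 in 35S:AtRALF1-1 and 10.6 and 1.8 in the control. In both genes the groups overlapped, and the log2 fold changes were -0.06 and 0.08, of which that of GSTU23 changed sign under the same normalizations.

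The tau and phi classes could be compared on 11 genes against 2, and the phi genes were dim. The median log2 fold change was -0.02 over the tau genes, which ranged from -1.25 to 0.93, and 0.23 over the phi genes, beside -0.04 over all probe sets. The tau median changed sign under quantile normalization (0.03) and cyclic loess (0.02), and the phi median was 0.53 with an offset of 1 and 0.09 with 64. No test was made of the difference between the classes. GSTF4 (AT1G02950) had signals of 16.5 and 24.0 in 35S:AtRALF1-1 and of 20.7 and 4.5 in the control, a log2 fold change of 0.39 (standard error 0.35) that was -0.03 without control replicate 2. ATGSTF13 (AT3G62760) had signals of 31.5 and 43.8 in 35S:AtRALF1-1 and of 46.1 and 25.2 in the control, a log2 fold change of 0.07 (standard error 0.34). The groups overlapped for both phi genes, and of their signals all but that of ATGSTF13 in the second 35S:AtRALF1-1 array lay under the array median. GSTL3 (AT5G02790), of the lambda class, whose members remove glutathione from adducts, had signals of 447.0 and 196.5 in 35S:AtRALF1-1 and of 466.5 and 290.8 in the control, a log2 fold change of -0.30 (standard error 0.47) that was 0.27 without 35S:AtRALF1-1 replicate 2.

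The comparison was then made within each repeat, where 1 array stands against 1 and no test is possible. These 2 differences share no array. In the tau class 7 of 11 genes had the same sign in both repeats, in the phi class 0 of 2, and in all 8 of 14, against 54% of all probe sets. GSTU20 was at least 2-fold lower in 35S:AtRALF1-1 in both repeats on the log2(signal + 16) scale, 1 of the 14 genes, against 0.242% of all probe sets, and no GST gene was 2-fold higher in both (0.299%). At 1.5-fold GSTU16 joined it on the lower side, against 2.1% of all probe sets, and GSTU21 stood on the higher side, against 1.6% (3.71% for both sides). Across the 11 tau genes the correlation of the first-repeat with the second-repeat difference was 0.84 and across the 14 genes 0.57 (0.15 across all probe sets), and without GSTU20, GSTU16 and GSTU21 it was -0.33 across the other 11 of the 14 genes. The 3 were left out for being large with 1 sign in both repeats, a choice that by itself lowers the correlation. Genes on the same arrays are not independent replicates, so these values describe the arrays.

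**Figure D2:**
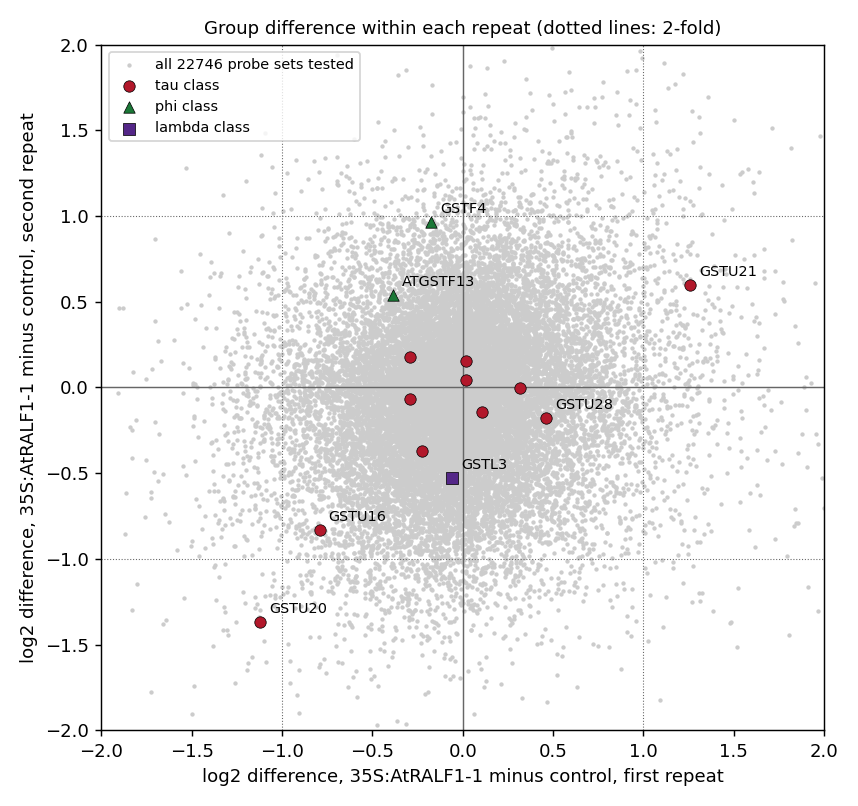
Difference in log2(signal + 16) between 35S:AtRALF1-1 and control in the first repeat (x axis) and in the second (y axis), for the tau, phi and lambda genes over all 22746 probe sets in grey, of which 93 lie outside the axes. GSTU20 lies past the dotted 2-fold lines on both axes (-1.12 and -1.37), GSTU16 lies at -0.79 and -0.83, and both phi genes lie left of 0 and above 0.

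Both phi genes, dim as they were, had opposite signs in the repeats. In the first repeat their signal was lower in 35S:AtRALF1-1 than in the control, with log2 differences of -0.17 for GSTF4 and -0.39 for ATGSTF13, and in the second repeat it was higher, with 0.96 and 0.54. From the other side, the 2 genes had opposite signs between the repeats in the 2 groups, each at least 0.25 in size, as had 9.92% of all probe sets. Of the tau genes, GSTU28 (0.46 in the first repeat and -0.18 in the second), GSTU23 (-0.29 and 0.18), GSTU22 (0.10 and -0.14) and GSTU25 (0.32 and -0.002) also changed sign. The signals of GSTU23 lay under the array medians, as did those of GSTU28 except in the first 35S:AtRALF1-1 array. The differences of GSTU15 (0.02 and 0.15), GSTU27 (0.02 and 0.04) and GSTU18 (-0.29 and -0.07) were small in both.

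The second comparison was between the repeats, which the labels name but do not describe. Between the repeats, fitted in the same way with 2 arrays on each side, no probe set passed the test (0% at an adjusted p under 0.05), but 11.8% had an unadjusted p under 0.05. Of the 14 GST genes 4 did so, GSTU20, GSTU27, GSTL3 and GSTU15, each lower in the second repeat, a direction that held 7.1% of all probe sets, and 0 were higher (4.73%). GSTU15 among them had signals of 1.8 to 10.9, under the array medians, and these are treated here as not told apart from background. For 9 of the 14 the log2 fold change between repeats was larger in size than that between groups, a share near the 55.6% of all probe sets. The median log2 fold change, second against first repeat, was -0.27 over the 14 genes and over the 11 tau genes, -0.20 over the phi genes and -0.03 over all probe sets. In the tau class 5 of 11 genes were positive (45.5%, against 45.9% of all probe sets), and in all 5 of the 14 (35.7%). The tau median was the value of GSTU21, a dim gene. It was -0.15 over the 8 tau genes among the brightest 60% of probe sets.

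GSTU20 had the largest difference between the repeats among the 14 genes. Its second-repeat signals, 163.5 in 35S:AtRALF1-1 and 447.6 in the control, were 0.195 and 0.243 times the first-repeat signals of 839.4 and 1843.9. The log2 fold change was -2.13 (standard error 0.59, limma, adjusted p = 0.352), and 0.154% of all probe sets lay at or below it. The order of the 4 arrays was thus set by repeat first and by group within the repeat.

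Of the GST genes, GSTU27 had the difference between repeats that was most alike in the 2 groups. Its signals in the second repeat were 136.6 in 35S:AtRALF1-1 and 132.3 in the control, and in the first repeat 242.1 in 35S:AtRALF1-1 and 238.9 in the control. The ratio of second to first was 0.564 and 0.554 in the 2 groups, and the log2 fold change was -0.77 (standard error 0.18, limma, adjusted p = 0.307). Within a repeat the groups differed by a log2 of 0.04 in the second and 0.02 in the first. In GSTL3 the second-repeat signal was 0.440 times the first in 35S:AtRALF1-1 and 0.623 times in the control, and limma gave a log2 fold change between repeats of -0.89 (standard error 0.24, adjusted p = 0.341). For GSTU26 the log2 differences were -0.71 in 35S:AtRALF1-1 and -0.56 in the control, and the fitted value was -0.64 (standard error 0.25, adjusted p = 0.429). In both genes the arrays of the repeats did not overlap.

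Second-repeat arrays lay below both first-repeat arrays for 6 genes (GSTU15, GSTU20, GSTU26, GSTU27, GSTU28 and GSTL3), against 24.7% of all probe sets, and above both for GSTU22 (19%). The signals of GSTU15 lay under the array medians, as did those of GSTU28 except in the first 35S:AtRALF1-1 array. At least 1.5-fold lower in the second repeat in both groups were GSTU20, GSTU27 and GSTL3, 3 of the 14 genes, against 5.08%. GSTU16 was almost level between the repeats, with a log2 fold change of 0.08, as were GSTU18 (0.05), GSTU25 (0.07), GSTU23 (0.12) and GSTU22 (0.15). The summed shoot markers in the second repeat were 16175.6 in 35S:AtRALF1-1 and 15815.8 in the control, against 17480.5 and 19986.8 in the first, and the summed root markers 4823.9 and 6532.4 in the second against 6361.5 and 7458.2 in the first. PYK10 and LHCB4.1 were lower in the second repeat in each group, and they set the sums. Other markers differed from them: EXPA7 (130.7 and 107.1 in the second repeat of 35S:AtRALF1-1 and control, against 111.3 and 62.2 in the first) and AT4G26010 were higher in the second repeat in each group, and EXPA18 and RCA were higher there in 35S:AtRALF1-1 and lower in the control. Their part in the GST values was not tested, and in whole seedlings fewer cells of a type and less RNA per cell cannot be told apart.

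**Figure D3:**
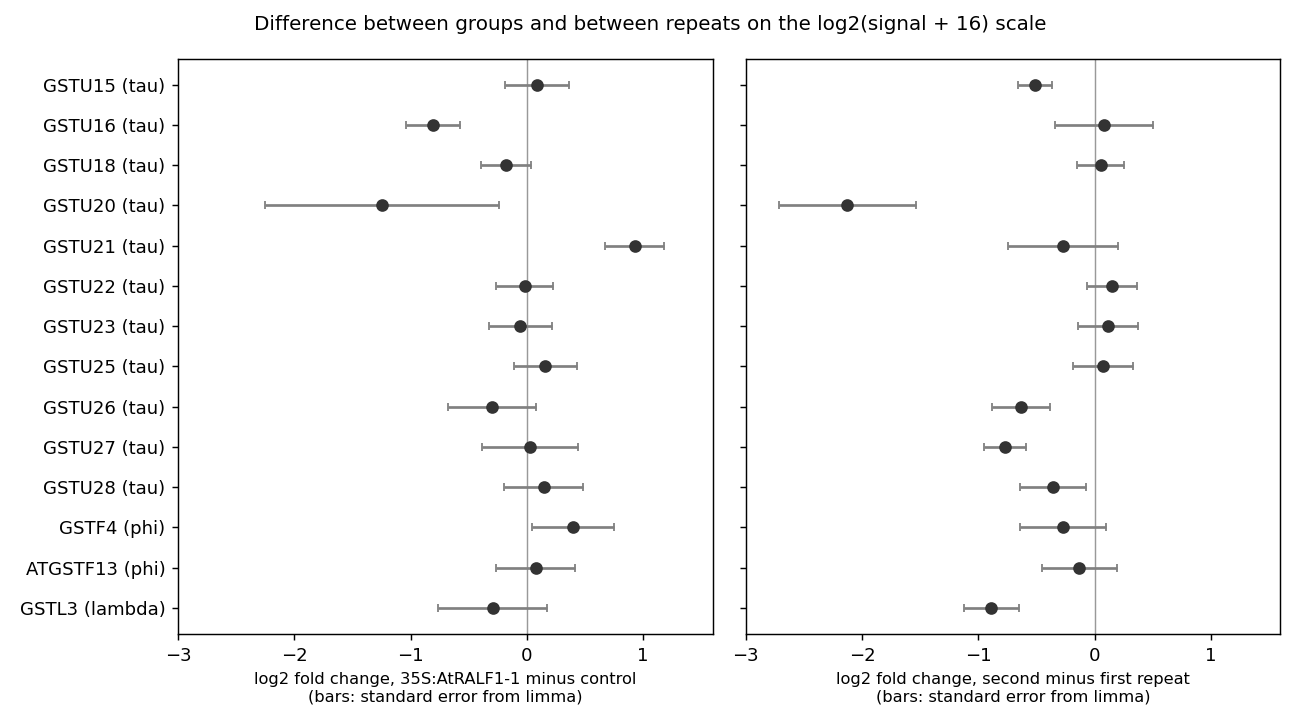
Log2 fold change of each of the 14 genes between 35S:AtRALF1-1 and control (left) and between the second and first repeat (right), each from 2 arrays against 2, with bars of 1 standard error from limma on either side. Between the groups GSTU20 (-1.25, standard error 1.01), GSTU21 (0.93) and GSTU16 (-0.81) lie furthest from 0. Between the repeats GSTU20, GSTL3, GSTU27, GSTU26 and GSTU15 lie furthest below 0 (-2.13 to -0.51). The signals of GSTU21 and GSTU15 lay under the array medians.

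Several of the tau genes are neighbours on chromosome 1. GSTU23, GSTU22, GSTU21 and GSTU20 are neighbours in this order, with 0 protein-coding genes between each and the next in RefSeq, and had log2 fold changes between groups of -0.06, -0.02, 0.93 and -1.25. GSTU23 and GSTU22 lay near 0. The signals of GSTU23 and GSTU21 lay under the array medians and are treated here as not told apart from background. The direction of GSTU21 beside GSTU20 has that limit. Between the repeats the 4 genes had 0.12, 0.15, -0.27 and -2.13. GSTU25 and GSTU26, another adjacent pair, had 0.16 and -0.30 between the groups and 0.07 and -0.64 between the repeats. GSTU15 and GSTU16, with 3 genes between them, had 0.08 and -0.81 between the groups and -0.51 and 0.08 between the repeats. The signals of GSTU15 lay under the array medians.

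Other genes of glutathione use were few on the array by name. Of 18 listed genes for the synthesis, reduction and transport of glutathione, 2 were measured, both glutathione reductases, which keep glutathione in its reduced form. None passed the test in either direction. GR1 (AT3G24170) had signals of 326.5 and 517.4 in 35S:AtRALF1-1 and of 477.8 and 893.9 in the control, which gave -0.65 on the log2 scale (standard error 0.41, limma, adjusted p = 0.987). GR (AT3G54660) had signals of 518.1 and 724.4 in 35S:AtRALF1-1 and of 746.1 and 887.1 in the control, or -0.40 on the log2 scale (standard error 0.27, adjusted p = 0.987). Both reductases were lower in 35S:AtRALF1-1 in each repeat, and between the repeats they had log2 fold changes of 0.76 and 0.36. Of the 14 GST genes 9 had the opposite sign there and 5 had the same sign (35.7%). Over all probe sets, 45.9% had the same sign as the reductases.

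Of 5 listed genes of other GST-related classes, AT1G65820, a microsomal GST, was measured alone, with signals of 1071.4 and 803.5 in 35S:AtRALF1-1 and of 807.2 and 844.7 in the control. Its groups overlapped, and its log2 fold change was 0.16 (standard error 0.24). Of 16 listed genes that respond to foreign chemicals and oxylipins together with tau GSTs, 4 were measured, and 0 passed the test in either direction. AT2G04050, a MATE transporter, had signals of 25.7 and 23.9 in 35S:AtRALF1-1 and of 56.4 and 33.0 in the control, a log2 fold change of -0.55. Another MATE transporter, AT2G04070, had signals of 59.6 and 33.8 in 35S:AtRALF1-1 and of 41.6 and 20.8 in the control, a log2 fold change of 0.41, and was named after its values had been seen. Of the 4 genes 2 had positive log2 fold changes. UGT73B4, a glucosyltransferase, had signals between 2.2 and 10.4, under the array medians, and the remaining gene of the 4 also lay under them. AT2G04050 lay above the array median only in the first control array, and AT2G04070 only in the first 35S:AtRALF1-1 array. None of the 6 listed TGA and SCL regulators and none of the 9 listed antioxidant enzymes was measured by a probe set named for it alone.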

How the data were processed

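RNA of 4 whole-seedling samples was hybridized to Affymetrix arrays, 1 per sample. The deposited signal intensities are linear, and the authors brought all arrays to a mean of 125.0 after trimming 2% at each end. How probe sets were summarized or background corrected is not given in the sources at hand. No further scaling was applied. After 64 of 22810 probe sets were left out as controls, values under 1 were set to 1, 16 was added and log2 taken. Groups, and separately repeats, were compared over all 22746 probe sets with limma 3.58.1 in R 4.3.3 (lmFit, eBayes with an intensity trend, two-sided, Benjamini-Hochberg, threshold 0.05), checked on simulated data. Sums and counts were made in Python 3.11.15. The number of arrays limits the precision.

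Gene names came from the platform's table, updated through RefSeq TAIR10.1, for names and gene order alone; 503 probe sets had several genes and 8730 none. By rule, all 14 GST genes are named, and from related lists up to 2 genes with the smallest p. AT2G04070 was named outside this rule, after its values had been seen. Markers are summed or named as list members. The genes and lists were chosen with earlier results of these data known. Alternatives were normalization by quantiles or cyclic loess, offsets of 1 and 64, the brightest 60% of probe sets, no trend, a term for repeat or group, each array left out, other rules for probe sets and members, and 1.5-fold and 3-fold in place of 2-fold. Normalizations and offsets for the 2-fold counts were added after seeing the data.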

Additional observations from a re-analysis of the deposited data

Results flagged for a closer look

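GSTF4 and ATGSTF13, the 2 phi genes, differed in opposite directions between the repeats in the 2 groups. Of their signals, all but that of ATGSTF13 in the second 35S:AtRALF1-1 array lay under the array median. Signals under it are treated here as not told apart from background, a cut that was not tested. In GSTF4 the second minus the first repeat was 0.30 on the log2(signal + 16) scale in 35S:AtRALF1-1 and -0.84 in the control, a difference of 1.14. In ATGSTF13 it was 0.33 in 35S:AtRALF1-1 and -0.59 in the control, a difference of 0.92. These differences were not tested, since each group has 1 array per repeat. Opposite directions of at least 0.25 in size were found in 2 of the 14 GST genes, against 9.92% of all probe sets, and the sizes of the 2 differences lay at the percentiles 92.4 for GSTF4 and 86.5 for ATGSTF13 among all probe sets. The limit of 0.25 was set after the values had been seen.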

How the results depend on the processing

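No GST gene had an adjusted p under 0.05 in 300 alternative values over the 2 contrasts. The count of probe sets called between groups was 0 (980 at an unadjusted p under 0.05), and it was 1 among the brightest 60%, where fewer were tested, and 1 with the replicate block. Between repeats it was 0 (2689 unadjusted), and 41 among the 60%, a filter that GSTU15, GSTU21, GSTU23 and GSTF4 did not pass. With any array left out both counts were 0. Such a fit takes the lone array to be as variable as the remaining pair. The labels do not say that same-numbered arrays are pairs. Their deviations from the group means correlated at 0.39 across probe sets, and 2 pairs are too few to settle it. With the block no GST gene passed after adjustment, and GSTU20 had an adjusted p of 0.659 from limma between groups and 0.125 between repeats. At an unadjusted p under 0.05 it added GSTU20 between groups (3 genes in place of 2, against 7.25% of all probe sets in place of 4.31%) and GSTU26 between repeats (5 in place of 4, against 13.4% in place of 11.8%).

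GST genes changed at least 2-fold the same way in both repeats numbered 1, against 0.541% of all probe sets, and 3 at 1.5-fold, against 3.71%. They numbered 0 at 3-fold and 2 with an offset of 1, for which no share over all probe sets was counted. The gene that joined GSTU20 with an offset of 1 was the dim GSTU21. With an array left out, the tau median ranged from -0.205 to 0.056 between groups and from -0.52 to -0.13 between repeats, and the phi median from -0.12 to 0.59 and from -0.58 to 0.17. Between repeats the tau median was -0.12 and the phi median -0.08 with an offset of 64, and the phi median was -0.46 with 1. The rules for probe sets and members changed nothing, as each gene has 1 unmarked probe set and the updated symbols added 0 genes. With quantile normalization and cyclic loess the log2 fold change between groups was 0.017 and 0.009 for GSTU22, and 0.037 and 0.027 for GSTU23. The cause was not tested.
With an array left out, values between groups ranged from -0.20 to 0.38 for GSTU15, -0.16 to 0.12 for GSTU22, -0.23 to 0.12 for GSTU23, -0.65 to 0.056 for GSTU26, -0.36 to 0.42 for GSTU27, -0.20 to 0.48 for GSTU28, -0.026 to 0.81 for GSTF4, -0.22 to 0.37 for ATGSTF13 and -0.86 to 0.27 for GSTL3. Between repeats they ranged from -0.33 to 0.50 for GSTU16, -0.094 to 0.20 for GSTU18, -0.90 to 0.36 for GSTU21, -0.029 to 0.26 for GSTU23, -0.084 to 0.23 for GSTU25, -0.75 to 0.21 for GSTF4 and -0.40 to 0.14 for ATGSTF13. The other 12 values kept their sign in all alternatives. Among these, GSTU15 between repeats was -1.68 with an offset of 1 and -0.16 with 64.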
